A study of Mus musculus with 22 samples.

Results

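The genes described here are the secreted Wnt ligands, their Frizzled receptors and Lrp co-receptors, the secreted antagonists of the pathway and the pathway targets Axin2 and Lef1, measured in the injured mouse spinal cord. They were taken by gene symbol alone, as every symbol that starts with Wnt, Fzd, Dkk or Sfrp and a number, plus Frzb, Lrp5, Lrp6, Wif1, Axin2 and Lef1. The rule found 43 of the 19087 genes named on the array, with 67 of the 33653 probes that carry 1 gene symbol: 19 ligands with 32 probes, 10 Frizzled receptors with 16, both Lrp co-receptors with 3, 10 antagonists with 12, and both targets with 4. RNA came from a segment of spinal cord around the lesion in female C57BL/6 mice aged 3 to 4 months. IκBα-dn mice carry a dominant-negative form of IκBα, an inhibitor of NF-κB, in astrocytes under the GFAP promoter, and WT mice were their littermates. Both genotypes were studied naive and at 3 days, 3 weeks and 6 weeks after a contusion of the spinal cord (spinal cord injury, SCI). The 21 arrays used held 23 mice, 3 per genotype and time except for 2 WT mice at 3 weeks, and each array set the RNA of 1 mouse against that of another.

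Wnt proteins are secreted lipid-modified ligands that bind Frizzled receptors on neighbouring cells. In the canonical branch, Lrp5 or Lrp6 joins the complex, β-catenin is spared from degradation, and TCF/LEF factors switch on targets such as Axin2. Other branches act without β-catenin, on cell polarity and movement. Sfrp proteins, Frzb and Wif1 bind the ligands, and Dkk proteins such as Dkk1 and Dkk2 bind the Lrp co-receptors. In the spinal cord the pathway patterns the embryonic neural tube and is known to affect the maturation of oligodendrocyte precursors and the guidance of axons.

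Promoter windows of the RefSeq annotation (GRCm38.p6, 250 bases before to 50 bases after a transcript start) were matched by symbol for 29 of the 43 genes, 35 windows in all, and were searched on both strands for the TCF/LEF motif, spelled CTTTGAT or CTTTGAA, and for the κB consensus. The TCF/LEF motif was in 3 of the 35 windows, against 8.65% of 32851 promoters of that length, and the κB consensus was in 1, that of Wnt10b, against 4.51%. Of the 13 genes with a probe that differed between the genotypes at 6 weeks, 8 have a window, and neither motif was in any of theirs. The 3 windows with the TCF/LEF motif are shown first, followed by those of Dkk2 and Fzd10, whose every probe was higher in IκBα-dn mice at 6 weeks. Capitals mark the motif, each sequence runs 5′ to 3′ along the strand of its gene, and the match on the opposite strand in Wnt11 appears as its reverse complement.
Dkk1, chr19:30549447-30549746, minus strand: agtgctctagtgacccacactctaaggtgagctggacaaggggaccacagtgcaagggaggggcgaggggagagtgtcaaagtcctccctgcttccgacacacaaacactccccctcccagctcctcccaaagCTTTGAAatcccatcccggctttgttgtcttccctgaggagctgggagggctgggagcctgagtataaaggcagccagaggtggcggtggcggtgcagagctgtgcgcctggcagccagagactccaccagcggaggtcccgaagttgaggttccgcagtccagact
Wnt11, chr7:98834862-98835161, plus strand: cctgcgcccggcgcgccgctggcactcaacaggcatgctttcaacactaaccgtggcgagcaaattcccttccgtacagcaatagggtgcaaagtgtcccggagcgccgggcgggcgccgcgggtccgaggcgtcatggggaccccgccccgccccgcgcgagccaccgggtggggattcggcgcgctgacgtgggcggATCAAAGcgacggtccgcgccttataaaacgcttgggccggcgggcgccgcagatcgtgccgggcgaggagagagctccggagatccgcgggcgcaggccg
Wnt5b, chr6:119449337-119449636, minus strand: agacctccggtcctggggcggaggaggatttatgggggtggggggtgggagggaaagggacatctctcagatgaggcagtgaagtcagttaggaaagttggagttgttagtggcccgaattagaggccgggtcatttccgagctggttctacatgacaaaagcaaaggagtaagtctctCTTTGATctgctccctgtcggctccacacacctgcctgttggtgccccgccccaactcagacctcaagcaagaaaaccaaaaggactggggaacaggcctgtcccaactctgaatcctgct
Dkk2, chr3:132085042-132085341, plus strand: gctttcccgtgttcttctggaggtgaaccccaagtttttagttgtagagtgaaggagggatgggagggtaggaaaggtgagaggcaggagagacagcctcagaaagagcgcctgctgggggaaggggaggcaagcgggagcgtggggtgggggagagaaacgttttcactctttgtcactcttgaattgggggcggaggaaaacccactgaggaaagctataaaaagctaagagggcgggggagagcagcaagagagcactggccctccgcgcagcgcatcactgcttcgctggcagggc
Fzd10, chr5:128600856-128601155, plus strand: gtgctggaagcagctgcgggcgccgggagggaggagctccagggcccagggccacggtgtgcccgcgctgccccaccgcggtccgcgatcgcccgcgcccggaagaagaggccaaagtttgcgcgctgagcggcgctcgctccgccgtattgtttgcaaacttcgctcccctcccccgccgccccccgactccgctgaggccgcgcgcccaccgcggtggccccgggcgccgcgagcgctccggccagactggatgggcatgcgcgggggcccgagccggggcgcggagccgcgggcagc

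The deposited values are log2 ratios of Cy5 over Cy3, already normalized by the authors. A difference is given on the log2 scale as the first-named group minus the second, from a linear model over all 21 arrays (limma), with its standard error (SE). A probe is called when its p is under 0.05 after Benjamini-Hochberg adjustment across the 43379 probes of a comparison. Values of single arrays have the fitted dye effect taken out. For some called probes the arrays at 6 weeks are set beside the range of the earlier arrays. The call used these same arrays, so values outside that range are not separate support for it. The share of such probes over the whole array was not computed. Probes of 1 gene are numbered in the order of their array positions, so that Sfrp1 (2) is the second of its probes. The small number of mice limits the precision, and the SE of a genotype difference at 6 weeks was 0.09 to 0.45 over the 67 probes.

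Naive, at 3 days or at 3 weeks after SCI, 0 of the 67 probes were called between IκBα-dn and WT mice, where the array as a whole also had 0% of its probes called at each of these times. At an unadjusted p under 0.05 there were 0, 4 and 1 member probes at these times. These are 0%, 5.97% and 1.49% of the members, against 2.68%, 6.8% and 2.17% of all probes. The differences of all 67 probes at these times ran from −0.92 to 0.56. At 6 weeks, 14 of the 67 probes were called (20.9%), against 19.7% of all probes, so the family as a whole was called about as often as the array. Of these 14, 12 were higher in IκBα-dn mice (7.74% of all probes were) and 2 were lower (11.9% of all probes). The median difference over the 67 probes was 0.14, against 0.02 over all probes. By the first probe of each gene, 7 of the 43 genes were called (16.3%), against 19.5% of all genes. By any probe, a count that grows with the probes of a gene, 13 genes were called, and that share over all genes was not computed. They were Wnt2, Wnt4, Wnt6, Wnt9a, Fzd3, Fzd7, Fzd10, Lrp5, Dkk2, Sfrp4 and Lef1, all higher, and Wnt5a and Sfrp1, both lower.

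**Figure D1:**
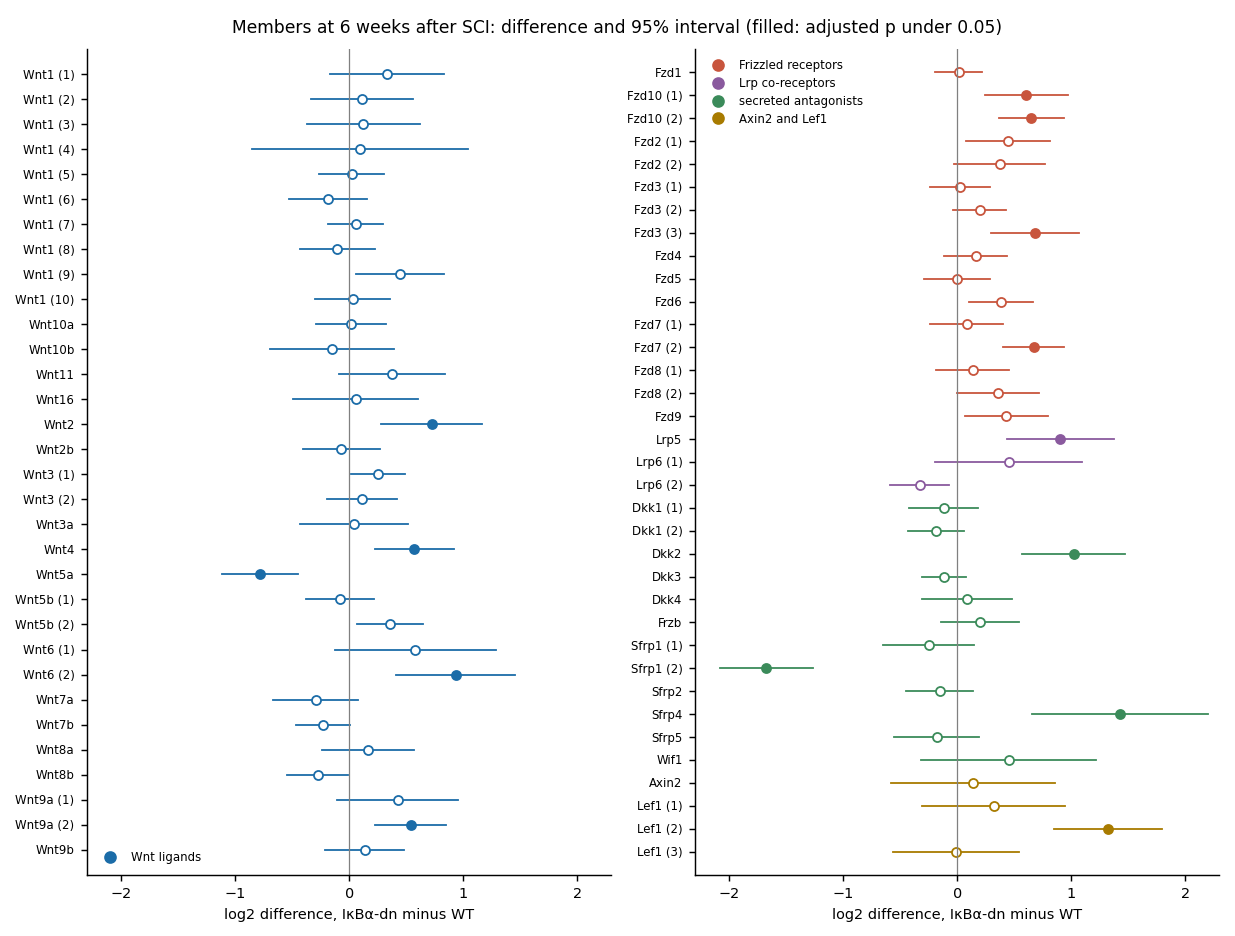
Difference between IκBα-dn and WT mice at 6 weeks for all 67 probes (log2, horizontal axis), with 95% intervals, coloured by role. The 14 filled points are called, 12 to the right of 0 and 2 to the left.

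Among the ligands, 4 probes were higher and 1 was lower in IκBα-dn mice at 6 weeks, and the 27 others ran from −0.30 to 0.58. Wnt5a, a ligand best known for signalling without β-catenin, was the ligand that was lower. On the 3 arrays that set IκBα-dn mice 1, 2 and 3 against a WT mouse at 6 weeks, Wnt5a (probe 40327) read −0.40, −0.84 and −1.33. All 3 lay below the 7 arrays of the earlier times, which ran from −0.27 to 0.15, and the fitted difference was −0.79 ± 0.16 (SE, n = 3 mice per genotype, adjusted p = 0.0023), which is 1.72-fold lower.

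Wnt2, Wnt4, Wnt6 and Wnt9a rose at 6 weeks. Wnt4 is a ligand of kidney and gonad development that is also made in the embryonic spinal cord, and Wnt2 and Wnt6 are made by mesenchymal and epithelial cells in development. Wnt2 (probe 9404) read 1.28, 0.64 and 0.08 for IκBα-dn mice 1, 2 and 3, with a fitted difference of 0.72 ± 0.21 (adjusted p = 0.022). Wnt4 (probe 26343) read 0.65, 0.82 and 0.23, with a fitted difference of 0.57 ± 0.16 (adjusted p = 0.020). In both, the lowest array was that of IκBα-dn mouse 3 against WT mouse 1, called below the array of IκBα-dn mouse 3. Its value lay within the range of the earlier arrays in both. A ratio does not tell which of its 2 mice sets an array apart. Wnt6 (2) (probe 13611) read 1.18, 1.58 and 0.18, with a fitted difference of 0.93 ± 0.25 (adjusted p = 0.013). Wnt6 (1) read 1.40, 1.25 and −0.96 and was not called (0.58 ± 0.33, adjusted p = 0.26), and it was called at 1.08 without the array of IκBα-dn mouse 3. The 2 Wnt6 probes followed each other closely over the 21 arrays, with a correlation of 0.87, and both were lowest on the same array at 6 weeks. Wnt9a (2) (probe 25663) read 0.74, 0.63 and 0.08, with a fitted difference of 0.54 ± 0.15 (adjusted p = 0.017), while Wnt9a (1) was not called at 0.42 ± 0.25. The calls of Wnt2, Wnt4, Wnt6 (2) and Wnt9a (2) did not hold when IκBα-dn mouse 1 or 2, or WT mouse 2 or 3, was left out, with differences down to 0.40, 0.44, 0.59 and 0.42, and that of Wnt5a held without any 1 mouse.

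Wnt1, the founding member of the family, has 10 probes on the array, all of 1 transcript. Their differences at 6 weeks ran from −0.18 to 0.44 and none was called. Over the 21 arrays the 45 pairs of Wnt1 probes had a median correlation of 0.02, so the probes did not follow each other. Wnt3a, Wnt7a, Wnt7b, Wnt8b and Wnt10b were not called either, at 0.04, −0.30, −0.23, −0.28 and −0.15. Wnt5b (2) was at 0.36 ± 0.14 (adjusted p = 0.079).

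**Figure D2:**
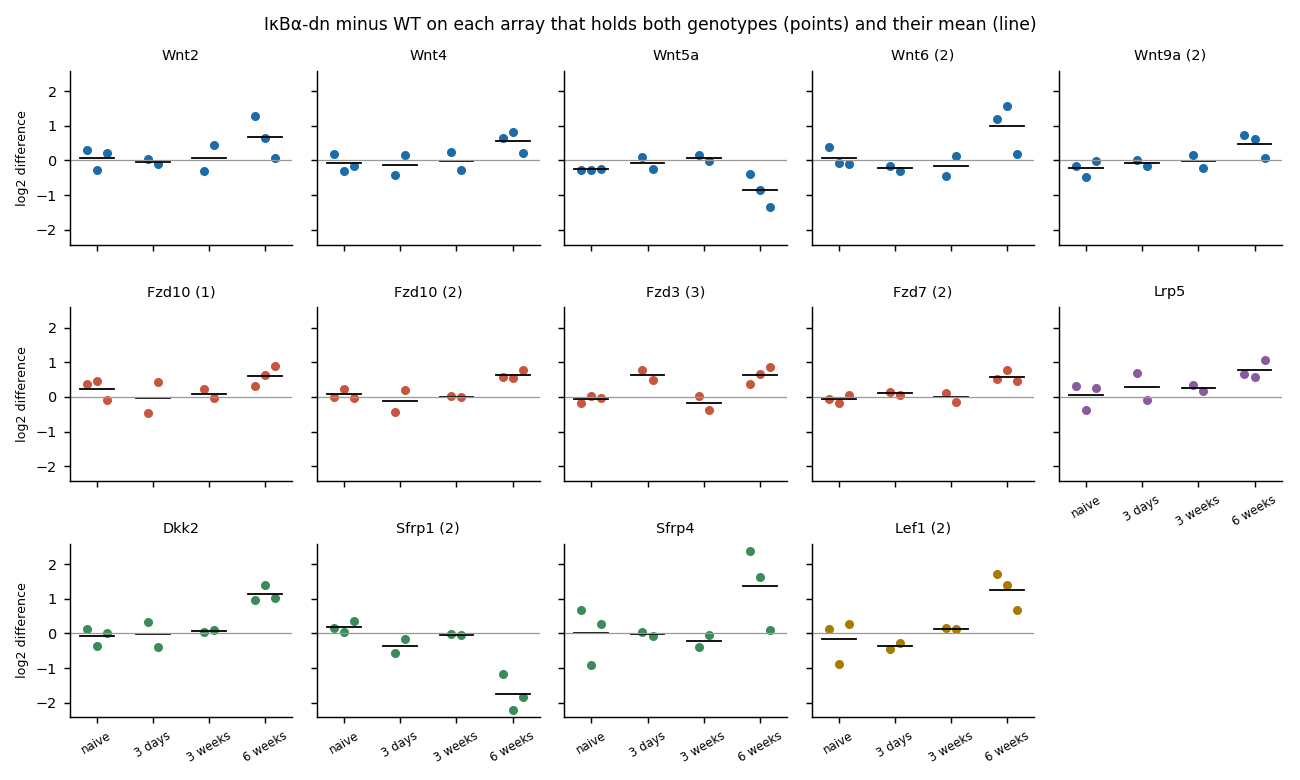
IκBα-dn minus WT (log2, vertical axis) per array, for the 10 arrays with both genotypes, by time, for the 14 probes called at 6 weeks. Points are arrays and lines their means. Dkk2, Fzd7 (2), Fzd10 (2), Lef1 (2), Wnt5a and Sfrp1 (2) leave the range of the earlier arrays on all 3 arrays at 6 weeks. So do Wnt1 (9) and Wnt7b, which were not called and are not drawn. The drawn probes were picked by a call that uses these 3 arrays, and the share over all probes was not computed.

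Of the Frizzled receptors, 3 of 10 had a called probe at 6 weeks, all higher in IκBα-dn mice, and the 12 other probes ran from −0.0044 to 0.44. By the first probe of each gene, 1 of the 10 was called, against 19.5% of all genes. Fzd10 was the receptor with the best agreement between probes. Fzd10 (1) (probe 9015) read 0.31, 0.63 and 0.88 for IκBα-dn mice 1, 2 and 3, and Fzd10 (2) (probe 20973) read 0.56, 0.54 and 0.78. The fitted differences were 0.61 ± 0.17 (adjusted p = 0.021) and 0.65 ± 0.14 (adjusted p = 0.0031), and the correlation between the 2 probes over 21 arrays was 0.91. The second of them lay above all 7 earlier arrays, which ran from −0.42 to 0.24, and the call of the first did not hold without IκBα-dn mouse 2 or 3 or WT mouse 1 or 2, with differences of 0.39 to 0.67.

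Fzd7, a receptor of many stem and progenitor cells, was called on 1 of its 2 probes. Fzd7 (2) (probe 43099) read 0.51, 0.78 and 0.46, above the earlier range of −0.18 to 0.15, with a fitted difference of 0.67 ± 0.13 (adjusted p = 0.0014). Fzd7 (1) was at 0.08 ± 0.15, and the 2 probes had a correlation of −0.07 over the arrays. Fzd3, a receptor of axon guidance and planar polarity, was called on 1 of its 3 probes. Fzd3 (3) (probe 45162) read 0.37, 0.67 and 0.86, with a fitted difference of 0.68 ± 0.18 (adjusted p = 0.014), while Fzd3 (1) and Fzd3 (2) were at 0.02 and 0.20. Its call did not hold without IκBα-dn mouse 2 or 3 or WT mouse 1 or 2, at 0.58 to 0.70, and that of Fzd7 (2) held without any 1 mouse. The Fzd2 probes, which had a correlation of 0.85, were at 0.44 and 0.37 and were not called. They read 0.63, 0.87 and −0.11 for Fzd2 (1) and 0.57, 0.65 and −0.38 for Fzd2 (2), again lowest on the array of IκBα-dn mouse 3, and without that array both were called, at 0.65 and 0.66. Fzd6 stood at 0.38 ± 0.13 (adjusted p = 0.054). Fzd1, Fzd4 and Fzd5 were at 0.01, 0.16 and −0.0044.

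The co-receptor Lrp5 (probe 7361) was higher in IκBα-dn mice at 6 weeks, by 0.90 ± 0.22 (adjusted p = 0.0084), or 1.87-fold. On the 3 arrays it read 0.66, 0.57 and 1.07. The first and second of these values fell within the range of the earlier arrays, the highest of which read 0.68, and the call did not hold without IκBα-dn mouse 3 or WT mouse 1 (0.84 and 0.83). Its relative Lrp6 has 2 probes that ran against each other over the arrays, with a correlation of −0.42. They stood at 0.45 ± 0.30 and −0.33 ± 0.12, and neither was called.

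Of the 10 antagonists, Dkk2 and Sfrp4 were higher and Sfrp1 was lower in IκBα-dn mice at 6 weeks, and the 7 others were not called. By the first probe of each gene, 2 of the 10 were called, against 19.5% of all genes. Dkk2, which can block or, in some settings, activate signalling through Lrp6, read 0.97, 1.41 and 1.02 on the 3 arrays (probe 27407). These were all above the 7 earlier arrays, which ran from −0.38 to 0.33, but the call itself uses these 3 arrays. The fitted difference was 1.02 ± 0.21 (adjusted p = 0.0030), or 2.03-fold. Sfrp4 (probe 43091) had the highest difference of the family, 1.43 ± 0.37 (adjusted p = 0.011), or 2.69-fold, but the 3 arrays read 2.36, 1.62 and 0.09. The array of IκBα-dn mouse 3 thus lay within the range of the earlier arrays, from −0.91 to 0.68. Without IκBα-dn mouse 1 or 2, or WT mouse 2 or 3, Sfrp4 was not called, at 1.00 to 1.47, whereas the call of Dkk2 held without any 1 mouse.

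Sfrp1, a decoy that binds Wnt ligands through its own Frizzled-like domain, stood furthest below WT in IκBα-dn mice. Sfrp1 (2) (probe 29722) read −1.17, −2.19 and −1.84, below the earlier range of −0.56 to 0.37, and its fitted difference was −1.68 ± 0.19 (adjusted p = 2.5e-05), or 3.20-fold lower. Sfrp1 (1) (probe 17952) read −0.22, −0.28 and −0.20, with a difference of −0.25 ± 0.19 (adjusted p = 0.40) and a 95% interval from −0.65 to 0.14 that does not reach the other probe's value. The correlation between the 2 probes was 0.29, and the files do not say which part of the transcript each one reads. The ligand-binding antagonist Wif1 read 1.04, 1.47 and −1.24 and was not called (0.45 ± 0.36, adjusted p = 0.45). Dkk1, the best known Lrp antagonist, was at −0.12 and −0.19 on its 2 probes, Dkk3 at −0.12, Sfrp2 at −0.15 and Frzb at 0.20, none of them called.

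The 2 targets gave no single direction. Axin2, the most widely used readout of canonical signalling, read 0.81, −0.64 and −0.27 on the 3 arrays at 6 weeks. The arrays pointed both ways, the fitted difference was 0.14 ± 0.34 (adjusted p = 0.83), and its 95% interval ran from −0.58 to 0.86. Lef1, a TCF/LEF factor that is also a target, was called on 1 of its 3 probes. Lef1 (2) (probe 30473) read 1.71, 1.40 and 0.68, above the earlier range of −0.88 to 0.27. Its fitted difference was 1.32 ± 0.23 (adjusted p = 0.00068). Lef1 (1) and Lef1 (3) were at 0.32 ± 0.30 and −0.01 ± 0.26, and correlations between the 3 Lef1 probes were −0.28 to 0.25.

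**Figure D3:**
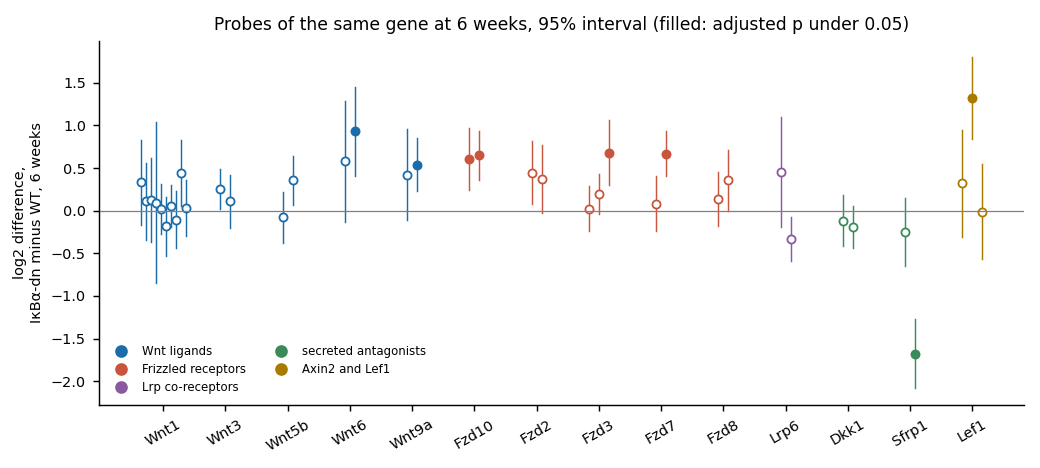
Difference between IκBα-dn and WT mice at 6 weeks (log2, vertical axis) with 95% intervals for the 14 genes that have several probes. Filled points are called. Both Fzd10 probes are called, and 1 probe each of Wnt6, Wnt9a, Fzd3, Fzd7, Sfrp1 and Lef1.

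Of the 14 genes with several probes, 6 had a call at 6 weeks on some probes and not on others, 1 had it on all (Fzd10) and 7 on none. The share of such mixed calls over all genes with several probes was not computed, so these counts have no base to be set against. Of the 29 genes with 1 probe, 6 were called. When the probes of each gene were averaged before the fit, 11 of the 43 genes were called (25.6%, against 20.2% of all genes): Wnt2, Wnt4, Wnt9a, Fzd7, Fzd10, Lrp5, Dkk2, Sfrp4 and Lef1 higher, and Wnt5a and Sfrp1 lower. Among these, Sfrp1 stood at −0.97 ± 0.14 and Lef1 at 0.54 ± 0.15.

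Against naive mice of the same genotype, 0 of the 67 probes were called in WT mice at 3 days, 3 weeks or 6 weeks, where 1.89%, 1.03% and 0.722% of all probes were. At an unadjusted p under 0.05 there were 5, 2 and 8 WT probes. These are 7.46%, 2.99% and 11.9% of the members, against 15.4%, 9.58% and 10.8% of all probes. The 4 highest WT values were 0.71 ± 0.21 for Fzd3 (3) at 3 days (adjusted p = 0.084) and, at 6 weeks, 0.71 ± 0.40 for Wnt6 (1) (adjusted p = 0.58), 0.69 ± 0.21 for Sfrp5 (adjusted p = 0.17) and 0.68 ± 0.16 for Fzd10 (2) (adjusted p = 0.070).

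In IκBα-dn mice at 3 days, 4 probes were called against naive (5.97%, against 6.3% of all probes). Fzd3 rose on 2 of its 3 probes, by 0.66 ± 0.15 and 1.45 ± 0.21 (adjusted p = 0.013 and 0.00079), where Fzd3 (1) and Fzd3 (3) were at 0.40 ± 0.14 and 0.71 ± 0.21 in WT mice. The genotypes differed by 0.56 ± 0.20 in Fzd3 (3) at 3 days, which did not pass (adjusted p = 0.62). Dkk3, an antagonist-like protein abundant in neurons, fell by 0.40 ± 0.11 (adjusted p = 0.036), and Wnt1 (7) fell by 0.52 ± 0.13 (adjusted p = 0.030) while the 9 other Wnt1 probes were not called. Leaving out 1 mouse at a time, with every array that held it, ended the Dkk3 call in 15 of 23 fits, at −0.45 to −0.33. It ended the Wnt1 (7) call in 12, at −0.66 to −0.45. In both counts, IκBα-dn 3-day mouse 2 and 3-week mouse 2 stand for the same fit, as they share their only array. The Fzd3 (1) call was lost without IκBα-dn naive mouse 3 or 3-day mouse 3, and the Fzd3 (3) call held in all fits. At 3 weeks, 0 probes were called in IκBα-dn mice (0.62% of all probes), with 7 at an unadjusted p under 0.05 (10.4%, against 9.67% of all probes).

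At 6 weeks, 21 of the 67 probes were called in IκBα-dn mice against naive (31.3%, against 25.7% of all probes), 18 higher (11.5% of all probes) and 3 lower (14.2%). Sfrp4 rose by 1.63 ± 0.42, Lef1 (2) by 1.70 ± 0.26, Dkk2 by 1.56 ± 0.25, Wnt6 by 1.34 ± 0.39 and 1.34 ± 0.28 on its 2 probes, Fzd3 (3) by 1.32 ± 0.21 and Fzd10 by 0.84 ± 0.20 and 1.27 ± 0.16. Wnt2, Wnt4, Wnt5b (2), Wnt9a (2), both Fzd2 probes, Fzd3 (2), Fzd6, Fzd7 (2) and Lrp5 rose by 0.46 to 0.87. Sfrp1 (2), Wnt5a and Lrp6 (2) fell by 1.89 ± 0.22, 0.66 ± 0.18 and 0.55 ± 0.14. The same probes in WT mice at 6 weeks read 0.15 ± 0.44 for Sfrp4, 0.10 ± 0.27 for Lef1 (2), 0.64 ± 0.26 for Dkk2 and −0.11 ± 0.23 for Sfrp1 (2). They read 0.71 ± 0.40 and 0.32 ± 0.29 on the Wnt6 probes, 0.45 ± 0.21 and 0.68 ± 0.16 on the Fzd10 probes, 0.53 ± 0.13 for Fzd3 (2) and 0.46 ± 0.22 for Fzd3 (3), and the 11 others ran from −0.21 to 0.23, none of them called. The comparison of IκBα-dn with WT mice at 6 weeks and that of 6 weeks with naive in IκBα-dn mice share the 3 IκBα-dn mice at 6 weeks. The call of Lrp5 was lost in 16 of 23 fits that left out 1 mouse (0.41 to 0.77) and that of Fzd6 in 10 (0.32 to 0.51). Those of Wnt2, Wnt4, Wnt5a, Wnt5b (2), Wnt6 (1), Wnt9a (2), both Fzd2 probes, Fzd10 (1) and Sfrp4 were lost in 1 to 5. In the 16 for Lrp5, IκBα-dn 3-day mouse 2 and 3-week mouse 2 stand for the same fit.

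**Figure D4:**
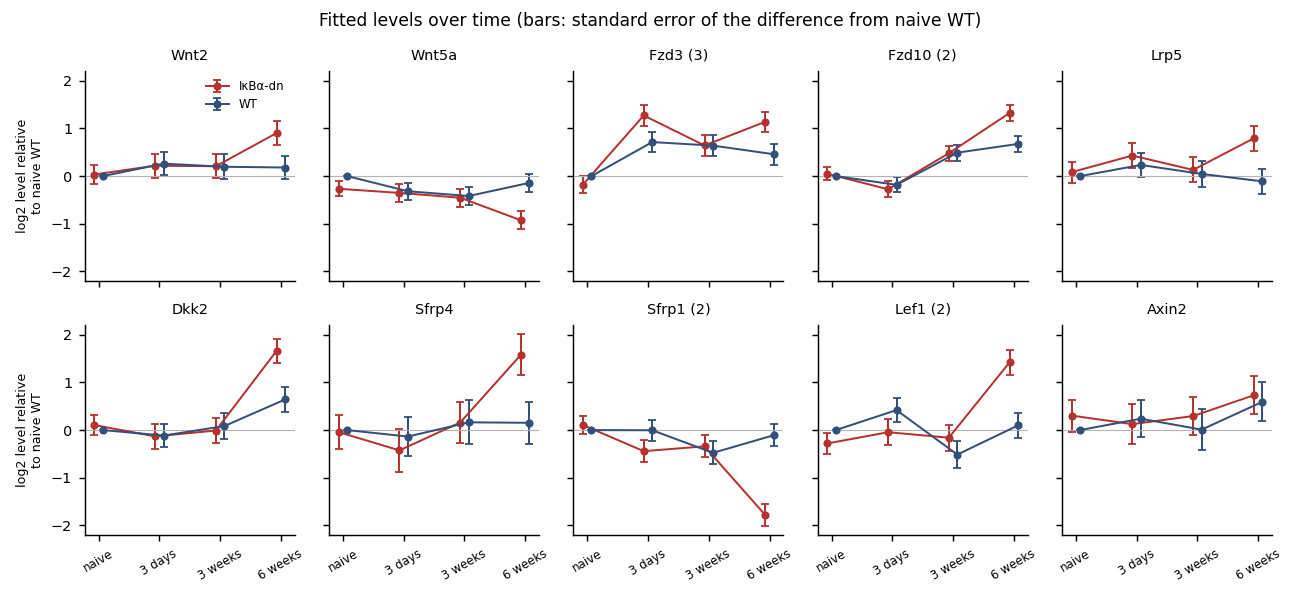
Fitted level relative to naive WT mice (log2, vertical axis) over naive, 3 days, 3 weeks and 6 weeks in IκBα-dn and WT mice, for 10 probes. Bars are the SE of the difference from naive WT, which is 0 by construction. The fitted levels of the genotypes part at 6 weeks in Dkk2, Sfrp4, Sfrp1 (2) and Lef1 (2), and the Axin2 bars overlap at all 4 times. The bars are not the SE of the genotype difference, so their overlap is no test of it.

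Whether the genotype difference itself changed with time was tested directly. Between naive mice and 6 weeks it changed for 5 probes (7.46%, against 8.94% of all probes): Sfrp1 (2) by −1.78 ± 0.26, Lef1 (2) by 1.60 ± 0.31, Fzd3 (3) by 0.86 ± 0.25, Fzd7 (2) by 0.81 ± 0.17 and Wnt9a (2) by 0.76 ± 0.20, with adjusted p from 0.00066 to 0.039. Between 3 weeks and 6 weeks it changed for 2 probes (2.99%, against 8.06%), Sfrp1 (2) by −1.81 ± 0.29 (adjusted p = 0.0017) and Dkk2 by 1.12 ± 0.32 (adjusted p = 0.044). The Sfrp1 (2), Lef1 (2) and Fzd7 (2) calls held without any 1 mouse, while Wnt9a (2), Fzd3 (3) and Dkk2 lost theirs in 8, 12 and 13 of 23 such fits, at 0.63 to 0.75, 0.75 to 0.97 and 0.99 to 1.22. For Wnt2, Wnt4, Wnt5a, Wnt6, Fzd10, Lrp5 and Sfrp4 neither change was called, so that their differences at 6 weeks were not shown to exceed those of naive mice.

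Other genes of the pathway were counted from lists by role, 67 of 68 listed genes being measured. At 6 weeks, 15 were higher in IκBα-dn mice and 4 were lower, against 8.59% and 10.9% of all genes by their first probe, with a median of 0.16. Wls, which carries Wnt proteins to the cell surface, was higher by 0.91 ± 0.11 (adjusted p = 3.8e-05). Ptk7, a co-receptor of planar polarity, was higher by 0.81 ± 0.12. Of 10 nuclear genes, Tcf7l2, Tcf7l1 and Tle3 were higher, by 0.70, 0.69 and 0.40. Of 9 listed targets, 5 were higher and none was lower: among them Cd44 by 1.17, Myc by 0.79, Sp5 by 0.77 and Tnfrsf19 by 0.30. These targets are not specific to Wnt signalling, with the exception of Sp5, which is among the most direct. In the cytoplasm, Gsk3b, the kinase that marks β-catenin for degradation, was lower by 1.42 ± 0.17 (adjusted p = 4.4e-05). Btrc, the ubiquitin ligase subunit that tags β-catenin, was lower by 0.57, while Dvl2, which relays the signal from Frizzled, was higher by 0.53. The other 12 of 15 cytoplasmic genes, among them Ctnnb1, which encodes β-catenin, were not called. Kremen1 and Igfbp4 were higher by 0.46 and 0.41, and Kremen2 and Rspo2 were lower by 0.48 and 0.65. The polarity genes Celsr1 and Prickle1 were higher by 0.76 and 0.63.

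RNA levels of cell type markers also differed at 6 weeks, and in a whole segment fewer cells of a type and less RNA per cell cannot be told apart. Of 17 markers of meningeal fibroblasts, 6 were higher in IκBα-dn mice and none was lower, with a median of 1.01 and a range of 0.09 to 1.78. The median of this list was 1.52, 1.38 and −0.22 on the 3 arrays, in the order of IκBα-dn mice 1, 2 and 3, which sets the third array apart in the same way as Wnt2, Wnt6, Fzd2, Sfrp4 and Wif1. Of the 12 member probes that were higher at 6 weeks, 7 (58.3%) had their smallest value on the array of IκBα-dn mouse 3, as did 32.3% of all probes higher at 6 weeks. Of 17 neuronal markers, 10 were lower and none higher, with a median of −0.68 and medians of −0.63, −0.78 and −0.90 on the 3 arrays. Of the 2 member probes that were lower, Wnt5a read lowest on the third array and Sfrp1 (2) on the second. Of 14 endothelial and 10 pericyte markers, 7 and 5 were higher, with medians of 0.50 and 0.67. Medians over astrocyte and microglia or macrophage markers were 0.02 and 0.27, with 0 of 11 and 2 of 16 called. Of 10 oligodendrocyte markers, 1 was higher and 1 lower, with a median of 0.10. Of 9 markers of oligodendrocyte precursors, 2 were higher and 0 lower, with a median of 0.19. Lists for Schwann cells, lymphocytes and ependymal cells are not described here. The part of these cell types in the results above was not tested.

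**Figure D5:**
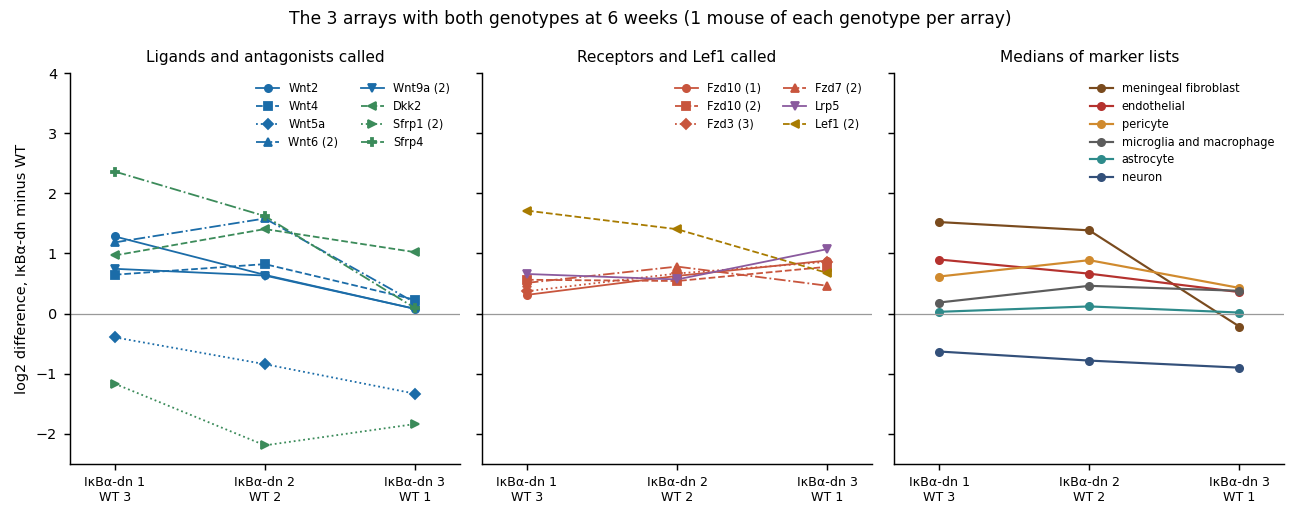
IκBα-dn minus WT (log2, vertical axis) on the 3 arrays with both genotypes at 6 weeks, for called ligands and antagonists, for called receptors and Lef1, and for the medians of marker lists. Lines join the values of 1 probe or list. Wnt2, Wnt6 (2) and Sfrp4 drop towards 0 on the array of IκBα-dn mouse 3, as the fibroblast median does, while Dkk2, Fzd10 and Lrp5 do not.

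All 14 called probes had the same sign on all 3 arrays at 6 weeks, as did 98.3% of all probes called at that time. In the labels these 3 arrays share 1 array number with a single other array, that of IκBα-dn mouse 1 against WT mouse 1 at 3 weeks, on which the 14 probes read −0.44 to 0.35. When the difference was taken without them, through the arrays that compare times within a genotype, 2 of the 67 probes were called (2.99%, against 1.85% of all probes), Sfrp1 (2) at −1.31 and Fzd7 (2) at 1.08. The other 12 called probes kept their direction without passing the test. Of these, 8 had a larger difference than with all arrays: Sfrp4 at 1.94, Lef1 (2) at 1.67, Lrp5 at 1.56, Wnt2 at 1.08, Fzd3 (3) at 0.89, Wnt9a (2) at 0.84, Fzd10 (2) at 0.75 and Wnt4 at 0.62 (adjusted p from 0.060 to 0.35). The 4 others were smaller, with Wnt6 (2) at 0.72, Fzd10 (1) at 0.56, Dkk2 at 0.48 and Wnt5a at −0.37 (adjusted p from 0.47 to 0.62).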

How the data were processed

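The data are 2-colour arrays of spinal cord RNA, each with 1 mouse labelled with Cy5 and another with Cy3. According to the methods, the authors read them with GenePix, removed features of poor quality, and normalized by lowess (within an array) and quantiles (between arrays) in limma. The authors deposited log2 ratios (43379 probes, 0 missing values). No source states their scale or direction, which were read from values and labels as Cy5 over Cy3. This was checked on the arrays of 3 days against naive, where 16 of 16 microglia and macrophage genes were higher in both genotypes (medians 0.95 in IκBα-dn and 1.33 in WT mice). Spot intensities were not used here. Gene symbols come from the array's platform annotation (33653 probes with 1 symbol, 56 with several, 9670 with none).

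Of 22 arrays, 1 with conflicting labels for a mouse (3 days or 3 weeks) was left out. Of the rest, 10 held both genotypes at 1 time (3 naive, 2 at 3 days, 2 at 3 weeks, 3 at 6 weeks) and 11 held 2 times of 1 genotype. Array medians ran from −0.08 to 0.05 and SDs from 0.37 to 0.74, and correlations between arrays from −0.32 to 0.68; different arrays hold different comparisons. The model (limma 3.58.1, R 4.3.3) took the Cy5 group minus the Cy3 group, with 1 dye term and a correlation through shared mice (0.45, by restricted maximum likelihood). Variances were moderated across probes (13 residual degrees of freedom, prior 3.23) and p-values adjusted within each comparison. A dye effect passed at 58.6% of probes. The model was tested on simulated data. Figures were drawn with matplotlib.

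Members and gene lists were chosen with earlier results of these data known. Members are described by role. Full values are given for members with a called probe, for the 3 per role with the smallest p at 6 weeks and for Axin2, Lef1, Lrp5 and Lrp6, and up to 4 genes with the smallest p are named per list of other pathway genes, plus Ctnnb1, which was added for its role after its value was seen. In counts of genes, a gene is taken by its first probe. The model was also run with independent arrays, with no dye term, a dye term per array number, terms for replicate number, only arrays with both genotypes, the conflicting array read either way, arrays centred or scaled, probe means, probes with 1 symbol only, stricter thresholds, each mouse left out and the 3 arrays with both genotypes at 6 weeks left out. A mouse was left out with every array that held it, so its partner on such an array lost that measurement too. The fits without IκBα-dn 3-day mouse 2 and without IκBα-dn 3-week mouse 2 are therefore the same fit. Leaving out the array that set IκBα-dn mouse 3 against WT mouse 1 at 6 weeks was chosen after seeing the data.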

Additional observations from a re-analysis of the deposited data

Results flagged for a closer look

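Results are listed here because the difference between IκBα-dn and WT mice itself changed with time, by the test of that change over all probes (limma, Benjamini-Hochberg). Between naive mice and 6 weeks the genotype difference changed by −1.78 for Sfrp1 (2), by 1.60 for Lef1 (2), by 0.86 for Fzd3 (3), by 0.81 for Fzd7 (2) and by 0.76 for Wnt9a (2). Between 3 weeks and 6 weeks it changed by −1.81 for Sfrp1 (2) and by 1.12 for Dkk2. Of these probes all but that of Dkk2 have at least 1 other probe of the same gene on the array that was not called in the same test. No group had enough arrays for a test of single outlying values.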

How the results depend on the processing

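Of the 67 probes, the 14 called between IκBα-dn and WT mice at 6 weeks became 2 without the 3 arrays that hold both genotypes at 6 weeks, 7 at an adjusted p under 0.01 and 2 at an adjusted p under 0.001 with a fold over 2, and 7 to 17 with 1 mouse left out. The lowest count came without IκBα-dn mouse 2 or WT mouse 2 at 6 weeks and the highest without IκBα-dn mouse 3. With probe means, 11 genes were called in place of 7. Against naive, WT mice had 1 called probe in place of 0 at 3 days with a dye term per array number, and at 6 weeks with arrays taken as independent, with the conflicting array read as 3 weeks, or with arrays centred, and 0 to 1 with 1 mouse left out at these times. In IκBα-dn mice at 3 days, the 4 calls became 2 with no dye term or a dye term per array number, 1 at either stricter threshold, and 1 to 5 with 1 mouse left out (1 without IκBα-dn naive mouse 3). At 3 weeks, 0 to 1 were called with 1 mouse left out. At 6 weeks, the 21 calls became 5 at an adjusted p under 0.001 with a fold over 2, and 13 to 22 with 1 mouse left out (13 without IκBα-dn naive mouse 3 or IκBα-dn 6-week mouse 1). For the change of the genotype difference from naive to 6 weeks, the 5 calls became 11 with arrays taken as independent, 8 with the conflicting array read as 3 weeks, with arrays centred or without the array that set IκBα-dn mouse 3 against WT mouse 1, 3 with a dye term per array number, at an adjusted p under 0.01 or without the 3 arrays, 2 with only the arrays of both genotypes, 1 at the strictest threshold, and 3 to 12 with 1 mouse left out (12 without IκBα-dn 6-week mouse 3). By probe means, 2 genes were called in place of 0. From 3 weeks to 6 weeks, the 2 calls became 8 with arrays taken as independent, 6 with the conflicting array read as 3 weeks, 1 with a dye term per array number, with scaled arrays, without the 3 arrays or at an adjusted p under 0.01, 0 with only the arrays of both genotypes or at the strictest threshold, and 1 to 6 with 1 mouse left out (6 without IκBα-dn 6-week mouse 3). By probe means, 2 genes were called in place of 1. At each time, same-numbered IκBα-dn and WT mice did not all deviate together (correlations from −0.53 to 0.44), so the numbers were not taken as a pairing. With terms for the replicate number (replicate block), 1 probe was called at 3 days in IκBα-dn mice, 8 for the change from naive to 6 weeks and 1 for that from 3 weeks to 6 weeks. The cause of these changes was not tested. No called value of a named probe changed sign under any alternative, and of 2530 values of single probes 212 lost a call, 26 gained one and 50 that were not called changed sign. Leaving out a WT mouse at 3 weeks leaves 1, whose spread is then taken from the other groups. Time comparisons could not be fitted from only the arrays of both genotypes. The few mice limit all of these values, and spot intensities were not used here.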
